A study of Mus musculus with 4 samples.

Results

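Plasma cells of the distal jejunum were described in 2 Control mice (Foxc1fl/fl;Foxc2fl/fl) and 2 EC-Foxc-DKO mice (Cdh5-CreERT2;Foxc1fl/fl;Foxc2fl/fl), all taken 18.5 h after intestinal ischemia and reperfusion (I/R), an injury made by clamping and then releasing the artery of the gut. In EC-Foxc-DKO animals, Cre recombinase is active in endothelial cells after tamoxifen and deletes the floxed Foxc1 and Foxc2 genes there, whereas Control animals carry the same floxed alleles and no Cre. By the study's methods, the tamoxifen-treated adults were males, blood was flushed out with PBS before digestion, and the line deletes the genes in both blood and lymphatic endothelium. Each mouse gave 1 library of 10x Genomics 3′ RNA-seq, in which each captured RNA molecule carries a unique molecular identifier (UMI) and is counted once.

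A cell was taken as a plasma cell when at most 20% of its UMIs lay on mitochondrial genes, when Jchain made up at least 1% of its UMIs, when it had at least 1 UMI of Mzb1, and when it had 0 UMIs of the T cell gene Cd3e and of the mast cell protease gene Mcpt1. This gave 68 cells of the 22679 barcodes, 10376 of which were under the mitochondrial limit. Plasma cells numbered 6 and 8 in replicates 1 and 2 of the Controls and 21 and 33 in the same replicates of EC-Foxc-DKO. The cells were deep, with medians of 27553 and 23197 UMIs in Control animals and medians of 18492 and 10061 in EC-Foxc-DKO animals, and their UMIs summed to 168280, 168971, 390339 and 340990. Among all libraries 51 barcodes occurred more than once, and 1 plasma cell, in EC-Foxc-DKO replicate 2, carried such a barcode.

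Plasma cells are the end stage of the B cell lineage and devote most of their RNA to antibody. Each cell makes 1 heavy chain, whose constant gene sets the antibody class, and 1 light chain, kappa or lambda. In the gut wall most plasma cells make IgA, with the heavy chain Igha, and the J chain (Jchain) joins IgA or IgM units so that epithelial cells can carry them into the lumen. Mzb1 and Derl3 act in the endoplasmic reticulum, where antibody is folded and misfolded protein is removed, and Xbp1 is the transcription factor that expands this compartment.

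The label was checked against genes that the rule did not use. Sdc1, the surface proteoglycan CD138, was at 166 and 225 CPM (UMIs counted for the gene in every 1000000 UMIs of these cells) in Control animals and at 110 and 182 CPM in EC-Foxc-DKO animals. Prdm1, the repressor that shuts off the B cell program, was at 95.1 and 76.9 CPM in Control animals and at 58.9 and 240 CPM in EC-Foxc-DKO animals. Both were thus detected in the plasma cells of all 4 mice, as were all 13 genes of a plasma cell identity list. T cells of the same libraries were taken under the same mitochondrial limit, with at least 2 UMIs of Cd3e and 0 of Mzb1. In them, Controls first, Sdc1 was at 4.92, 0, 0 and 6.31 CPM. Prdm1 was there at 46.8, 90.3, 56.5 and 48.4 CPM, so it did not set the plasma cells apart in every mouse. The identity list summed to 1688, 1917, 1737 and 2595 CPM in plasma cells and to 448, 512, 440 and 362 CPM in T cells. Ms4a1 (CD20), which B cells lose as they become plasma cells, had 0 UMIs in both Control mice and was at 66.6 and 29.3 CPM in EC-Foxc-DKO animals. The 4 mast cell markers, among them Mcpt1 of the rule, had 0 UMIs in every mouse. Of the 5 other T cell markers, none had a UMI in Control animals, and their sums were 2.56 and 35.2 CPM in EC-Foxc-DKO animals, led by Trac and Cd8a. The 5 macrophage and neutrophil markers summed to at most 38.1 CPM (led by Lyz2, with the neutrophil gene S100a8 at 0), the 5 erythroid markers to at most 5.94 CPM, the 4 endothelial markers to at most 17.8 CPM and the 4 stroma markers to at most 5.92 CPM. Siglech, the defining gene of plasmacytoid dendritic cells, had 0 UMIs in every mouse. Foxc1, Foxc2 and Cre had 0 UMIs in the plasma cells of all 4 mice, so that the deletion itself could not be read in them. Over all cells under the mitochondrial limit, Foxc1 had 9 and 19 UMIs in Control animals and 7 and 4 in EC-Foxc-DKO animals, Foxc2 had 0 in each, and Cre had 0, 0, 5 and 4.

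The values that chose the cells describe them and test nothing. Jchain took 6.74% and 6.08% of all plasma cell UMIs in Control animals and 3.67% and 5.02% in EC-Foxc-DKO animals. The lowest Jchain share inside the rule was 5.18% and 4.53% in Control animals and 1.11% and 1.47% in EC-Foxc-DKO animals. Otherwise fitting cells reached at most 0.216% and 0.237% below the limit in Control animals, but 0.789% and 0.887% in EC-Foxc-DKO animals. The limit of 1% therefore fell into an empty gap in Control animals and close to cells on both sides in EC-Foxc-DKO animals. The Cd3e condition left out 0, 1, 2 and 4 cells that met the rest of the rule in the 4 mice, Controls first.

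As a share of the cells under the mitochondrial limit, plasma cells made up 0.196% of 3054 (exact binomial 95% interval 0.0721% to 0.427%) and 1.01% of 794 (0.436% to 1.98%) in Control animals. They made up 0.481% of 4364 and 1.52% of 2164 in EC-Foxc-DKO animals. The shares of the genotypes overlapped, and the 2 mice of each genotype differed from each other by more than the genotype means did. With 2 mice a group, the smallest p of an exact two-sided permutation test is 0.333, and shares of cells are given with intervals of counting error only and with no test. The median mitochondrial share over all barcodes also differed between libraries, at 22.9% and 46.7% in Control animals and 14.3% and 25.1% in EC-Foxc-DKO animals, and its part in these shares was not tested.

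Immunoglobulin genes dominated the RNA of the plasma cells in every mouse, and each EC-Foxc-DKO mouse had a smaller share than each Control mouse. They held 60.7% and 58.5% of the summed plasma cell UMIs in Control animals, but 49.7% and 40.9% of those in EC-Foxc-DKO animals. The means were 59.6% ± 1.5 and 45.3% ± 6.25 (SD, n = 2 mice each), a difference of -14.3 percentage points. Taken per cell, the median was 63.3% and 59.0% in Control animals and 51.2% and 48.2% in EC-Foxc-DKO animals. Single cells ranged widely, from 41.3% to 76.7% over Control animals and from 14.7% to 71.5% over EC-Foxc-DKO animals, so that the genotypes overlapped cell by cell although not mouse by mouse. In T cells of the same libraries, which should lack these genes, the share was 0.0330%, 0.0311%, 0.0731% and 0.0126%, at median depths of 4827, 5091, 4665 and 2964 UMIs. Other B cells, with at least 1 UMI of Ms4a1 and Jchain below the limit, had shares between 0.603% and 1.22%. Free RNA measured in the T cells was therefore a very small part of the plasma cell values. Since these T cells were chosen with 0 UMIs of Mzb1, cells that had taken up Mzb1 RNA were left out of this measure. A share falls when immunoglobulin RNA falls or when other RNA rises, and both were counted. Per cell, the median number of immunoglobulin UMIs was 16530 and 12325 in Control animals and 8756 and 4426 in EC-Foxc-DKO animals, with no overlap. The median number of UMIs outside the immunoglobulin genes was 11548 and 8774 in Control animals and 8820 and 4903 in EC-Foxc-DKO animals, with overlap and not higher in EC-Foxc-DKO animals as a group. In non-dividing cells the immunoglobulin medians of EC-Foxc-DKO animals were 8690 and 4518 UMIs. The libraries differed in depth, and the part of depth in these numbers of UMIs was not tested.

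**Figure D1:**
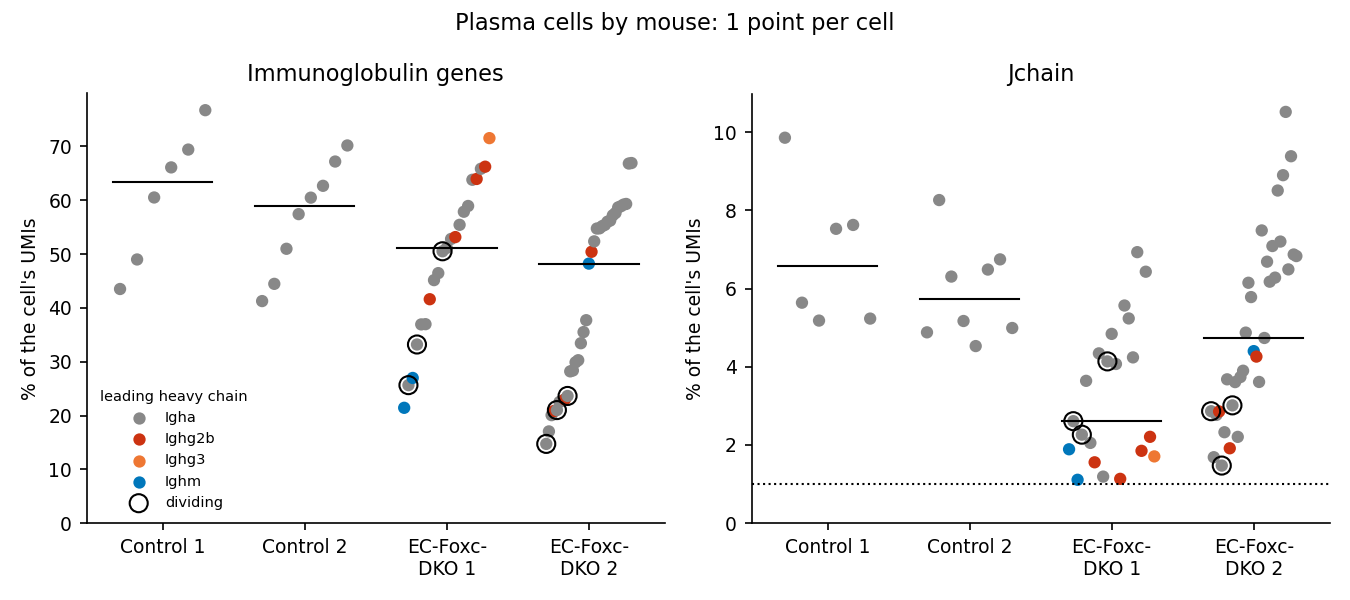
Each point is 1 plasma cell, and the y axes give the share of its UMIs on immunoglobulin genes (left) and on Jchain (right, with the 1% limit dotted). Colors mark the leading heavy chain, rings mark dividing cells and lines mark medians. All 14 Control cells were led by Igha, whereas 11 of the 54 EC-Foxc-DKO cells were led by another heavy chain, most of them low in Jchain.

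Dividing cells were then set apart. Plasmablasts, the cycling precursors of plasma cells, make less antibody RNA, and a cell was called dividing when it had UMIs of at least 3 of 10 genes of the cell cycle, such as Mki67, Top2a and Birc5. No plasma cell of either Control mouse was dividing, which with 6 and 8 cells allows shares of up to 50.0% and 37.5% by a limit of 3 counts. In each EC-Foxc-DKO mouse 3 cells were dividing, 14.3% of 21 (exact 95% interval 3.05% to 36.3%) and 9.09% of 33 (1.92% to 24.3%). The intervals overlap those of Control animals, but they cover counting error over cells only. With this number of cells, the share of dividing cells was not tested between genotypes. When each cell was thinned to 1000 UMIs, the expected shares were 8.81% and 4.41% in EC-Foxc-DKO animals and 0% in Control animals. All 6 dividing cells were led by Igha. Their immunoglobulin genes held 37.4% and 19.1% of the summed UMIs, below the value of the other plasma cells of the same mouse. With no dividing cell in Control animals, the difference between genotypes within dividing cells and the interaction of genotype and division could not be estimated.

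The immunoglobulin difference became smaller but kept its direction in the 62 plasma cells that were not dividing. Their share was unchanged at 60.7% and 58.5% in Control animals, which had no dividing cell to remove, and it was 53.5% and 43.8% in EC-Foxc-DKO animals. The means were then 59.6% ± 1.5 and 48.6% ± 6.81 (SD, n = 2 mice each), a difference of -11.0 percentage points in place of -14.3. The genotypes did not overlap in either set. By the median cell, the EC-Foxc-DKO values were 53.0% and 51.4%, still below 63.3% and 59.0%. Restricting the cells further to those led by Igha, a choice made after seeing the data, gave 52.7% and 44.7% from 11 and 26 EC-Foxc-DKO cells, a difference of -10.9 points.

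Setting apart cells with B cell genes was tried as well, although UMIs of these genes are no clear mark of a cell. Plasma cells with UMIs of at least 2 genes of a B cell and germinal center list numbered 3 of 6, 3 of 8, 17 of 21 and 18 of 33 in the 4 mice. In T cells of the same libraries, which are shallower, 14.5%, 4.08%, 8.96% and 4.62% met this mark. When each cell was thinned to 1000 UMIs, the expected shares were 0.328%, 2.93%, 20.8% and 8.61% of plasma cells and 2.94%, 0.0900%, 3.28% and 0.390% of T cells. The share of Control replicate 1 thus lay below that of its T cells. Those of Control replicate 2 and of both EC-Foxc-DKO mice lay above. The T cells of Control replicate 1 also held macrophage and neutrophil genes at 785 CPM, and the source of the B cell UMIs was not tested. After the plasma cells with this mark and the dividing cells were set apart, 3, 5, 4 and 15 cells remained. Their immunoglobulin shares were 60.6% and 63.3% in Control animals and 59.3% and 49.9% in EC-Foxc-DKO animals, a difference of -7.34 points. EC-Foxc-DKO replicate 1 then lay close to Control replicate 1, with 4 cells against 3. With so few cells, the smaller difference is given as a value only. In Control replicate 1 the cells were also set apart on a mark that, after thinning, was less frequent than in its T cells. EC-Foxc-DKO replicate 2 stayed further below, and its plasma cells were also the shallowest and had the highest median mitochondrial share (5.52%, against 1.24% and 2.37% in Control animals and 2.09% in EC-Foxc-DKO replicate 1). The part of depth and mitochondrial RNA in the difference was not tested.

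**Figure D2:**
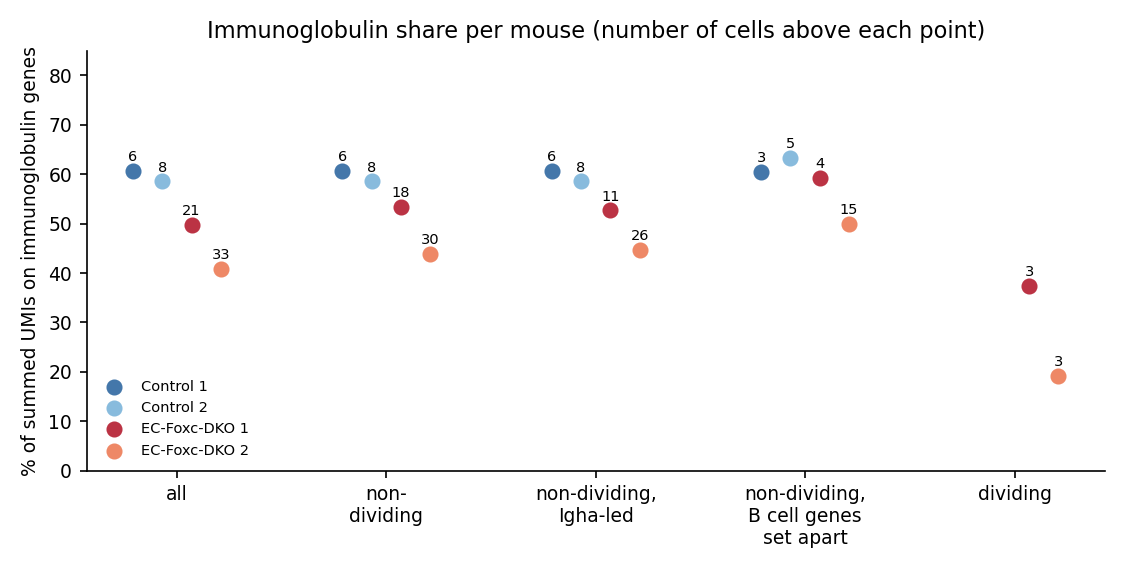
Share of summed plasma cell UMIs on immunoglobulin genes (y axis, percent) in each mouse, for 5 sets of plasma cells (x axis), with the number of cells above each point. Both EC-Foxc-DKO mice lay below both Control mice in the first 4 sets, and Control animals had no dividing cells.

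The antibody class of each cell was read from its leading heavy chain gene. In Control replicates 1 and 2, all 6 and all 8 plasma cells had Igha as their leading heavy chain gene (exact 95% intervals of 54.1% to 100% and 63.1% to 100%). In EC-Foxc-DKO replicate 1, 14 of 21 cells were led by Igha (66.7%, 43.0% to 85.4%), 4 by Ighg2b, 2 by Ighm and 1 by Ighg3. In EC-Foxc-DKO replicate 2, 29 of 33 were led by Igha (87.9%, 71.8% to 96.6%), 3 by Ighg2b and 1 by Ighm. The intervals of all 4 mice overlap and are wide with 6 and 8 Control cells. They cover counting error over cells only, and the share of IgA cells was not tested between genotypes. A heavy chain constant gene held under 2% of the UMIs of 2 cells, 1 in each EC-Foxc-DKO mouse. Igkc held 45.3% and 47.6% of theirs, and the class of these 2 cells is uncertain. The cell of EC-Foxc-DKO replicate 1 had 2 heavy chain UMIs, 50% of them Igha, and was counted with Igha. Without it, 13 cells of that mouse were led by Igha. All 68 cells had more kappa than lambda constant UMIs.

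The cells of other classes had a lower median Jchain share, and their range overlapped that of the IgA cells. Their Jchain ranged from 1.11% to 4.40% with a median of 1.89% over 11 cells, against 1.19% to 10.5% with a median of 5.18% over the 57 cells led by Igha. The 1.19% was that of a cell of uncertain class, and the next lowest share of a cell led by Igha was 1.47%. Since Jchain chose the cells, these values are a description, and the rule left out some cells of other classes. Among cells under the mitochondrial limit but outside the rule, 0 and 1 in Control animals and 9 and 5 in EC-Foxc-DKO animals had at least 10% of their UMIs on immunoglobulin genes. Of these, 0, 1, 3 and 4 held a UMI of Cd3e, and the others failed on Jchain or Mzb1. One of them, in EC-Foxc-DKO replicate 1, had 43.1% of its 2282 UMIs on Ighg1 and 0.131% on Jchain.

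The heavy chain genes lie side by side on chromosome 12 (GRCm38, minus strand), where a B cell changes its antibody class by joining its variable region to another constant gene. Igha (ENSMUSG00000095079) spans chr12:113254830-113260236, Ighg2b (ENSMUSG00000076613) chr12:113302965-113307933, Ighg3 (ENSMUSG00000076615) chr12:113356224-113361232 and Ighm (ENSMUSG00000076617) chr12:113418558-113422730. The kappa gene Igkc (ENSMUSG00000076609) lies at chr6:70726435-70726966 and the lambda genes on chromosome 16. Many of these genes are close copies of each other, such as Iglc2 and Iglc3 or Ighg2b and Ighg2c, so that counts of the less abundant copy are uncertain.

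UMIs were summed per mouse and compared with edgeR's quasi-likelihood test, with Benjamini-Hochberg adjustment over all genes tested and a threshold of 0.05. Over all plasma cells, 1 of 1692 genes tested passed (0.0591% of genes), and 147 had an unadjusted p below 0.05. That gene was Ighg2b, the IgG2b heavy chain, at 89.1 and 225 CPM in Control animals and at 12804 and 6255 CPM in EC-Foxc-DKO animals. Both EC-Foxc-DKO mice thus lay far above both Control mice, with a log2 fold change of 5.41 (SE 0.55, adjusted p = 0.0332). The UMIs came from few cells, as the 4 and 3 cells led by Ighg2b held 97.5% and 73.7% of all Ighg2b UMIs of the EC-Foxc-DKO plasma cells. In EC-Foxc-DKO replicate 1 most came from 1 cell, with 12.5% of its 28276 UMIs on Ighg2b. The other cells led by Ighg2b in that mouse had at most 13494 UMIs. A Jchain limit of 2% in place of 1% gave a log2 fold change of 3.65 (adjusted p = 0.601), and a limit of 0.5% gave 5.16 (adjusted p = 0.1598). Without TMM the adjusted p was 0.0703 at a log2 fold change of 5.96, and without Control replicate 1 it was 0.249 at 5.04.

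In non-dividing plasma cells none of 1451 genes passed (0% of genes, 88 with an unadjusted p below 0.05), whereas DESeq2 called 2. None of the 7 Ighg2b-led cells was dividing, and Ighg2b was at 16594 and 7096 CPM in EC-Foxc-DKO animals. The fitted difference was 5.89 on the log2 scale (SE 0.65), with an adjusted p of 0.115 that lay on the other side of the threshold although the difference was no smaller. The alternatives ranged from 1.98e-35 to 0.829 in adjusted p, and 11 of 21 passed, so that the call turned on the setting while the direction did not. The log2 fold change moved as well, to 9.31 with division called by Mki67 or Top2a and to 2.68 with B cell genes set apart. When a mouse was left out it ranged from 4.97 to 6.51. Cells led by Igha and not dividing held Ighg2b at 481 and 2054 CPM in EC-Foxc-DKO animals. Their log2 fold change was 2.59 (SE 0.70, adjusted p = 0.763). In EC-Foxc-DKO replicate 2, however, 1 cell carried 89.7% of these UMIs, and Igha made up only 59.2% of its heavy chain UMIs. In EC-Foxc-DKO replicate 1, 2 of the 11 cells held all of them, and in Control animals 1 cell held 100% and 84.2%. Without the cell with the most Ighg2b in each mouse, the levels were 0 and 40.1 CPM in Control animals and 143 and 220 CPM in EC-Foxc-DKO animals, given as values only.

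**Figure D3:**
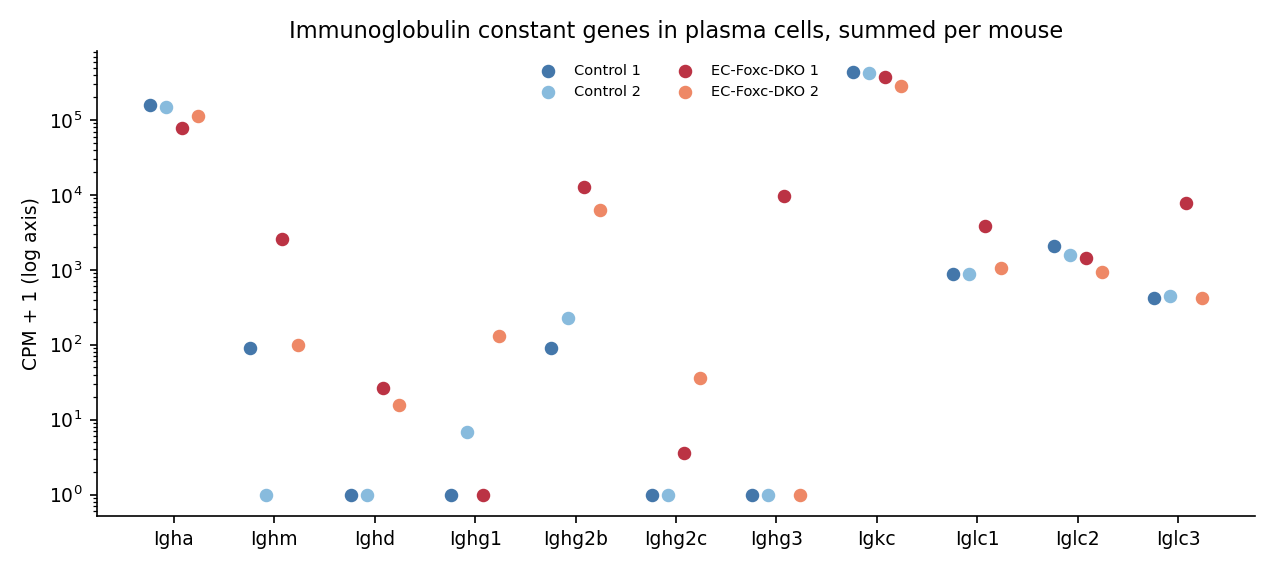
Level of each immunoglobulin constant gene in the summed plasma cells of each mouse, as CPM + 1 on a log axis, so that 0 UMIs lie at 1. Ighg2b lay far above both Control mice in both EC-Foxc-DKO mice, and Ighg3 and Iglc3 were high in EC-Foxc-DKO replicate 1 only. Ighd had 0 UMIs in both Control mice and at most 25.6 CPM in EC-Foxc-DKO animals.

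The main antibody chains were lower in both EC-Foxc-DKO mice, but these differences did not pass the test. Igha was at 160370 and 149369 CPM in Control animals and at 78762 and 114760 CPM in EC-Foxc-DKO animals, a log2 fold change of -1.29 (SE 0.44, adjusted p = 0.517). In non-dividing cells it was at 81188 and 123411 CPM in EC-Foxc-DKO animals and the log2 fold change was -1.06 (SE 0.48, adjusted p = 0.720). The Igha levels of the genotypes did not overlap in either set, which held for 4.14% of all genes tested in this direction over all plasma cells and for 5.10% over non-dividing cells. On CPM scaled by TMM, the scaling of the fitted fold changes, Igha again did not overlap, and 18.4% and 16.5% of genes tested were lower without overlap. Igkc, the kappa light chain, was at 438989 and 427328 CPM in Control animals and 376837 and 283486 CPM in EC-Foxc-DKO animals, with log2 fold changes of -0.98 (SE 0.55) and, without dividing cells, -0.71 (SE 0.60). Both differences were smaller once dividing cells were set apart, and this change was not tested. The size of these values depended on the scaling. Without TMM they were -0.63 and -0.55 for Igha and -0.34 and -0.24 for Igkc, over all and over non-dividing cells, while the median of all genes tested rose from -0.021 to 0.60 and from -0.0025 to 0.45. In non-dividing cells Igkc was also -0.41 without EC-Foxc-DKO replicate 2 and -1.10 without EC-Foxc-DKO replicate 1.

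Ighg3 and Iglc3 rested on single cells, and the other rarer chains on more. Ighm, the IgM heavy chain, was at 89.1 and 0 CPM in Control animals and at 2585 and 96.8 CPM in EC-Foxc-DKO animals, so that only EC-Foxc-DKO replicate 1 stood apart, where the most abundant cell held 69.8% of it (log2 fold change 4.32, SE 1.66, adjusted p = 0.540). This value ranged from 0.35 without EC-Foxc-DKO replicate 1 to 11.7 without Control replicate 1, and in non-dividing cells from 0.65 to 11.8. Ighg3, the IgG3 heavy chain, reached 9766 CPM in EC-Foxc-DKO replicate 1, of which 1 cell held 98.5%, and it had 0 UMIs in the other 3 mice. The lambda gene Iglc3 was at 416 and 444 CPM in Control animals and at 7865 and 419 CPM in EC-Foxc-DKO animals, and 1 dividing cell held 92.9% of the Iglc3 UMIs of EC-Foxc-DKO replicate 1. Its log2 fold change accordingly went from 2.75 (SE 1.11) over all plasma cells to -0.02 (SE 0.33) over non-dividing cells. Iglc2 was at 2098 and 1556 CPM in Control animals and lower, at 1430 and 941 CPM, in EC-Foxc-DKO animals. Iglc1 had log2 fold changes of 0.93 and 1.10, and Iglc2 of -1.22 and -0.89, over all and over non-dividing cells, none past the threshold, and without TMM those of Iglc2 were -0.58 and -0.40. Leaving out a mouse moved Iglc2 between -1.69 and -0.77 over all and between -1.43 and -0.46 over non-dividing cells, lowest without EC-Foxc-DKO replicate 1 and highest without Control replicate 1. Ighd, the IgD heavy chain of naive B cells, had 0 UMIs in both Control mice and 10 and 5 UMIs (25.6 and 14.7 CPM) in EC-Foxc-DKO animals, too few to be tested. Ighe had 0 UMIs in all mice, and Ighg1 and Ighg2c were at no more than 129 and 35.2 CPM.

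**Figure D4:**
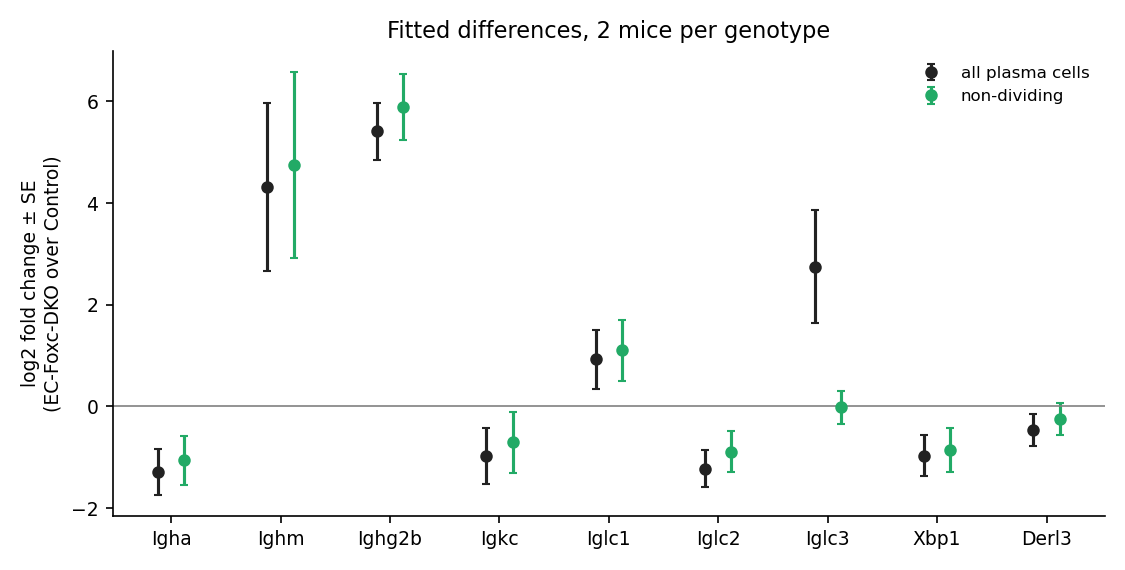
Fitted log2 fold changes of EC-Foxc-DKO over Control with their standard errors (bars), over all plasma cells (black) and non-dividing plasma cells (green). Ighg2b lay near 5 to 6 in both sets, Igha and Igkc near -1, and Iglc3 moved from 2.75 to -0.02.

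Pairs of a heavy and a light variable gene differed from cell to cell within each mouse. Cells with at least 3 UMIs of both a leading heavy and a leading light variable gene numbered 5, 7, 14 and 12 in the 4 mice, and in no mouse did the same pair occur in more than 1 cell. Their heavy genes were all distinct within a mouse, whereas the distinct light genes numbered 5, 6, 9 and 9. The lambda gene Iglv1 was the leading light gene in 1, 2, 3 and 3 of these cells, and there the pair is uncertain. The leading variable genes by summed UMIs were Igkv5-48, Iglv1 and Ighv5-12 in Control replicate 1, Iglv1, Igkv3-7 and Igkv8-27 in Control replicate 2, Iglv1, Igkv12-44 and Igkv5-48 in EC-Foxc-DKO replicate 1, and Iglv1, Ighv3-6 and Igkv17-127 in EC-Foxc-DKO replicate 2. Several were the product of single cells, as with Igkv5-48 in Control replicate 1 and Igkv3-7 in Control replicate 2, of which 1 cell held 100%. Others were spread over cells, as with Igkv5-48 in EC-Foxc-DKO replicate 1, of which the most abundant cell held 50.7%. Iglv1 was among the leading genes in all 4 mice although no cell was led by a lambda constant gene, and its most abundant cell held 20.8% to 76.5% of it. Igkv17-127 and Ighv1-54 were among the genes with the lowest p, with adjusted p of 0.193 and 0.316.

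The secretory machinery did not differ detectably. It was high in the plasma cells of every mouse, with 26 listed genes of the secretory pathway and the unfolded protein response summing to 12913 and 21063 CPM in Control animals and 21136 and 22402 CPM in EC-Foxc-DKO animals, against 3119 to 3571 CPM in T cells and 2514 to 4595 CPM in other B cells. Of the 24 genes tested, 0 passed in either direction, and the median log2 fold change was -0.21 over all plasma cells and -0.11 over non-dividing cells, beside -0.021 and -0.0025 over all genes tested. Without TMM scaling these medians turned to 0.39 and 0.33, but those of all genes also rose, to 0.60 and 0.45. Over all plasma cells the log2 fold changes of the list ran from -1.16 to 0.46, and its distance from all genes was not tested.

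Among its most abundant members, Hsp90b1 (GRP94), a chaperone that folds antibody chains, was at 1967 and 4871 CPM in Control animals and at 4406 and 5812 CPM in EC-Foxc-DKO animals. The signal peptidase subunit Sec11c was at 1135 and 1716 CPM against 1770 and 1912 CPM, Ssr4 of the translocon at 1462 and 1912 CPM against 1860 and 1422 CPM, and Hspa5 (BiP), which holds unfolded heavy chains, at 677 and 1835 CPM against 1660 and 1522 CPM. Control replicate 1 was the lowest for Hsp90b1, Sec11c and Hspa5, and the other 3 mice lay closer together. Xbp1 was at 1082 and 556 CPM in Control animals and at 648 and 657 CPM in EC-Foxc-DKO animals, and Derl3 at 256 and 527 CPM against 412 and 411 CPM. The log2 fold changes in non-dividing cells were -0.86 (SE 0.44, adjusted p = 0.724) for Xbp1 and -0.26 (SE 0.32, adjusted p = 0.874) for Derl3, and for both the genotypes overlapped in CPM. The Xbp1 value rested on Control replicate 1, without which it was -0.09 in non-dividing cells and -0.17 over all plasma cells, and it was -0.32 and -0.28 without TMM. Mzb1, which the rule used, was at 1991 and 2746 CPM against 3354 and 2584 CPM.

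Several of these genes carry the endoplasmic reticulum stress element, the motif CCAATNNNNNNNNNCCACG, through which ATF6 and XBP1 are known to act. It was searched on both strands from 250 bases before to 50 bases after the start of each gene, in RefSeq promoters of GRCm38.p6. All 26 listed genes had a promoter in that table, and 5 of them held the motif (19.2%), Creld2, Derl3, Hsp90b1, Hspa5 and Pdia6, against 39 of 32851 promoters (0.119%) in all and 0 of 13 for the plasma cell identity list. Windows of 3 of them are shown because these genes carry the antibody folding and disposal described above, with the fixed letters of the motif in capitals, read 5′ to 3′ along the gene's strand. In Hsp90b1 it also occurs a second time, in the opposite orientation, and in Derl3 it runs in the opposite orientation.
Hspa5, chr2:34772021-34772047, plus strand: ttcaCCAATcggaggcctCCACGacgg
Hsp90b1, chr10:86705634-86705660, minus strand: aagcCCAATcgcaaggagCCACGcttc
Derl3, chr10:75893238-75893264, plus strand: ctacCGTGGgacttccccATTGGctag

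Plasma cell identity genes, which set and hold the antibody-secreting state, had a median log2 fold change of -0.51 over all plasma cells and -0.47 over non-dividing cells, which became 0.13 and 0.01 without TMM scaling. The medians of all genes tested were -0.021 and -0.0025, and without TMM 0.60 and 0.45. The list thus lay below all genes on both scales, and its distance from them was not tested. None of the 13 tested passed in either direction. Eaf2 and Tent5c, the latter known to stabilize secretory RNAs, were the most abundant along with Pou2af1 and Ell2. Pou2af1, a coactivator of immunoglobulin genes, was at 166 and 160 CPM in Control animals and at 277 and 499 CPM in EC-Foxc-DKO animals (log2 fold change 0.57 in non-dividing cells, adjusted p = 0.770). Eaf2 was at 220 and 320 CPM against 320 and 223 CPM, Tent5c at 267 and 320 CPM against 231 and 390 CPM, and Ell2, an elongation factor that favors secreted heavy chain, at 113 and 183 CPM against 167 and 279 CPM. Among these 4, the levels of Pou2af1 alone did not overlap between genotypes, being higher in EC-Foxc-DKO animals, as were those of 51.2% of all genes tested (21.9% on TMM-scaled CPM). Of the 13 genes on TMM-scaled CPM, 7 were lower and 3 higher without overlap over all plasma cells. Over non-dividing cells these numbers were 6 and 2. The shares of all genes tested were 18.4% lower and 21.9% higher, and 16.5% and 22.3% over non-dividing cells.

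Homing and survival genes were sparse. The chemokine receptor Ccr10, which guides IgA cells to mucosa, was at 226 and 201 CPM in Control animals and at 289 and 185 CPM in EC-Foxc-DKO animals, and the gut receptor Ccr9 at 77.3 and 76.9 CPM against 64.0 and 132 CPM. The integrin chains Itga4 and Itgb7, which together bind the gut vessel ligand MAdCAM-1, were at 131 and 136 CPM against 133 and 287 CPM, and at 59.4 and 183 CPM against 61.5 and 129 CPM. Of 11 homing genes 5 were tested and 0 passed, and the genotypes overlapped in CPM for all 4 named here. Of 10 survival genes 5 were tested over all plasma cells and 0 passed. The BCMA gene Tnfrsf17, which receives the survival signal APRIL, was at 178 and 136 CPM against 131 and 164 CPM, Tnfrsf13b (TACI) at 95.1 and 160 CPM against 110 and 155 CPM, and the anti-apoptotic gene Mcl1 at 202 and 136 CPM against 259 and 334 CPM. Tnfrsf13c, the BAFF receptor of earlier B cells, was at 23.8 and 29.6 CPM against 48.7 and 44.0 CPM.

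B cell genes were low, with larger sums in both EC-Foxc-DKO mice than in both Control mice. The 16 genes of the B cell and germinal center list summed to 149 and 254 CPM in Control animals and to 1104 and 551 CPM in EC-Foxc-DKO animals, against 5796 to 11944 CPM in other B cells. In T cells of the same mice they summed to 598, 56.5, 402 and 98.9 CPM, above the plasma cells in Control replicate 1 and below them in the other 3 mice. Most of it was MHC class II, which presents antigen to T cells and is lost late on the way to a plasma cell. H2-Ab1 was at 131 and 195 CPM in Control animals and at 674 and 361 CPM in EC-Foxc-DKO animals, and H2-Aa at 17.8 and 29.6 CPM against 254 and 129 CPM. The genotypes did not overlap for either gene, which held for 51.2% of all genes tested in this direction over all plasma cells and for 42.8% over non-dividing cells (21.9% and 22.3% on TMM-scaled CPM, on which both genes again did not overlap). The log2 fold changes were 1.12 (SE 0.40, adjusted p = 0.528) and 2.45 (SE 0.57, adjusted p = 0.316), and in non-dividing cells 1.40 (SE 0.52) and 2.79 (SE 0.68), both with an adjusted p of 0.720. The H2-Aa value in non-dividing cells was 1.76 without EC-Foxc-DKO replicate 1 and 3.39 without EC-Foxc-DKO replicate 2. Only these 2 of the 16 genes were tested, and 0 passed. With 3 and 5 UMIs in Control animals, H2-Aa came through the filter on low genes by its level in EC-Foxc-DKO animals, so the median of this list is not read against other lists. Pax5 and Bach2 had 0 UMIs in Control animals and at most 10.2 CPM in EC-Foxc-DKO animals.

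**Figure D5:**
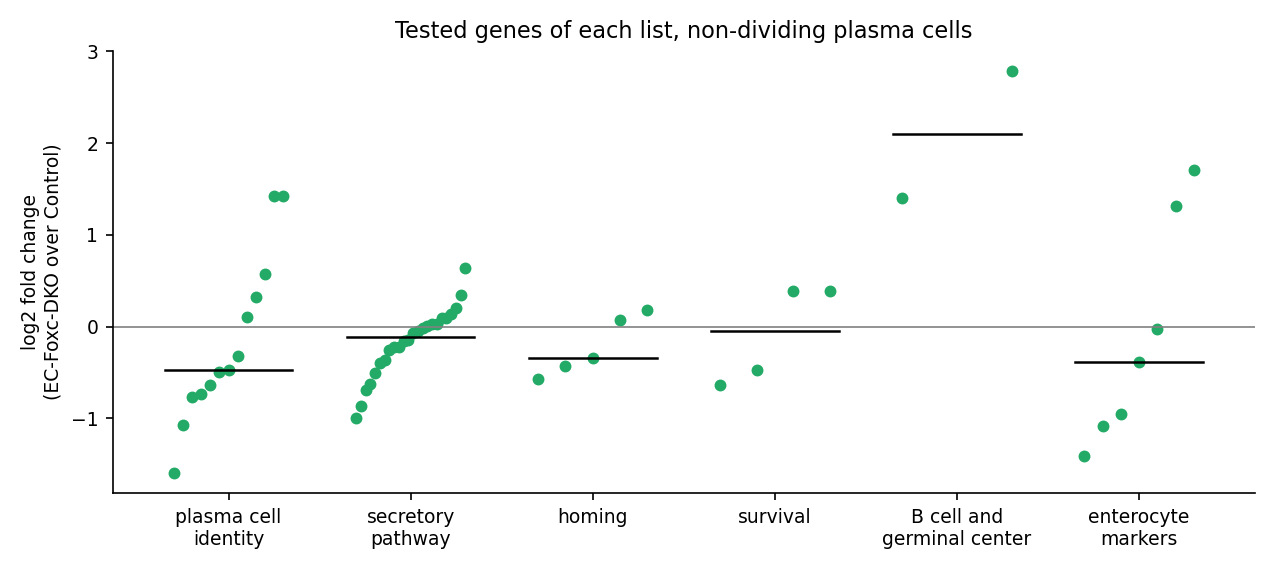
Fitted log2 fold changes (y axis, EC-Foxc-DKO over Control) of the tested genes of 6 lists in non-dividing plasma cells, 1 point per gene, with the median of each list as a black line and that of all genes tested as a grey line. None passed the threshold, and only 2 of the 16 B cell genes were tested.

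The genes with the lowest p beside immunoglobulins are given as values, since none passed in the main edgeR fits. Cd52, a surface glycoprotein of lymphocytes, was at 576 and 894 CPM in Control animals and at 2946 and 3504 CPM in EC-Foxc-DKO animals, a log2 fold change of 1.57 (SE 0.25, adjusted p = 0.193). In non-dividing cells it was at 3451 and 3383 CPM in EC-Foxc-DKO animals (log2 fold change 1.82, SE 0.26, adjusted p = 0.243). The genotypes did not overlap in either set, but this direction without overlap held for 51.2% and 42.8% of all genes tested, or 21.9% and 22.3% on TMM-scaled CPM. The fold change was no smaller without dividing cells. DESeq2 called Cd52 in both sets (adjusted p = 0.00812 over all and 0.000558 over non-dividing cells). Over non-dividing cells edgeR called it at a mitochondrial limit of 10% (adjusted p = 0.0334) and with no filter on low genes (adjusted p = 6.93e-05). Apoe, the apolipoprotein, was at 0 and 17.8 CPM against 840 and 185 CPM, and Vim, an intermediate filament, at 5.94 and 11.8 CPM against 71.7 and 106 CPM, with adjusted p of 0.316 for both. With 0 and 3 UMIs of Apoe and 1 and 2 of Vim in Control animals, both came through the filter on low genes by their level in EC-Foxc-DKO animals. Syne2, a nuclear envelope protein, was at 77.3 and 124 CPM against 15.4 and 0 CPM, a log2 fold change of -4.10 (SE 0.76, adjusted p = 0.315). Syne2 in turn came through the filter on low genes by its level in Control animals. DESeq2 called Apoe (adjusted p = 0.00812) and Syne2 (adjusted p = 0.0498) over all plasma cells. Since the filter kept both genes through the genotype where they were high, these calls are given as values only. With 0 UMIs in 1 mouse each, the fitted values of Apoe and Syne2 moved far when a mouse was left out, Apoe from 3.64 to 10.2 with the highest without Control replicate 2, and Syne2 from -7.89 without EC-Foxc-DKO replicate 1 to -3.16 without EC-Foxc-DKO replicate 2. Pnrc1 and 5031425E22Rik had log2 fold changes of -1.45 and -2.11, which became -0.80 and -1.52 without TMM. Without Control replicate 2, 5031425E22Rik was at -1.42.

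Over all plasma cells, 3 genes of proliferating cells, Hmgb2 (log2 fold change 2.61), Pclaf (4.05) and Tuba1b (2.73), were among the 10 with the lowest p, variable genes aside. In non-dividing cells all 3 fell below the filter on low genes and were not tested. Over all plasma cells they had at most 6 UMIs in a Control mouse, so that they came through the filter by their level in EC-Foxc-DKO animals, and the Pclaf value, with 0 and 2 UMIs in Control animals, was 8.42 without Control replicate 2. The 10 genes used to call division summed to 17.8 and 76.9 CPM in Control animals and to 927 and 466 CPM in EC-Foxc-DKO animals, and once the dividing cells were set apart to 36.7 and 49.9 CPM in the latter, a fall that the choice of cells fixes. Among the 10 lowest p of non-dividing cells, counted likewise, stood Coro1a (1.81), an actin-binding protein of leukocytes, H2-Aa (2.79), Txnip (1.65) and Mettl1 (-1.64).

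Genes of stress and the interferon response did not pass the test in either direction. Fos, an immediate early gene that tissue digestion can induce, was at 909 CPM in Control replicate 1 and at 130, 110 and 238 CPM in the other 3 mice. Jun was at 35.7 and 272 CPM in Control animals against 128 and 76.2 CPM, and Junb at 41.6 and 23.7 CPM against 74.3 and 61.6 CPM. Bst2, a tethering protein of the interferon response, was at 256 and 355 CPM against 243 and 196 CPM, and Ifi27l2a at 125 and 166 CPM against 323 and 326 CPM. The levels of Junb and Ifi27l2a were higher, and those of Bst2 lower, in both EC-Foxc-DKO mice without overlap, which held for 51.2% (higher) and 4.14% (lower) of all genes tested. On TMM-scaled CPM the Junb levels overlapped, and the shares were 21.9% and 18.4%. Of 8 stress genes 3 were tested, and of 8 interferon genes 2, and 0 passed. The 7 enterocyte markers, none of which plasma cells are known for, summed to 2846 and 331 CPM in Control animals and to 830 and 2698 CPM in EC-Foxc-DKO animals, led by Fabp2, Epcam, Fabp2 and Apoa1, with 0 of 7 past the threshold. In T cells of the same mice they summed to 19893, 1848, 11522 and 18822 CPM, so the order of the 4 mice was the same, and it did not follow the genotype. Of the 10 genes that the study listed for its plasma cell cluster, chosen on these samples and therefore no independent evidence, 7 were tested over all plasma cells and 0 passed.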

How the data were processed

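For each mouse the authors deposited a matrix of raw UMI counts over 32286 features, made with Cell Ranger (4.0.0 per the labels, while the methods name another version) on mm10 with Cre added. A joined table of the 4 libraries was not used. Members, gene lists and tests were chosen with earlier results of these data known. Immunoglobulin genes were 12 constant and 348 variable genes. UMIs were summed per mouse and fitted with edgeR 4.0.16 (glmQLFit, glmQLFTest, filterByExpr, TMM, genotype as the only term, Benjamini-Hochberg), with DESeq2 1.42.0 as an alternative. SE is the fold change divided by the square root of F. A planned minimum of 10 cells per mouse was met by neither Control mouse and was dropped. CPM is per 1000000 UMIs of the same cells, without TMM. Shares of cells carry exact binomial 95% intervals, which with the limit of 3 counts for a share of 0 cover counting error only. Doublets were kept. The named genes were all markers and constant genes, the 10 lowest p per comparison (variable genes aside), the leading 3 variable genes per mouse, and the 4 most abundant tested genes of each list. Other genes named (Sdc1, Prdm1, Ms4a1, Siglech and the B cell genes at 0) were chosen after their values were seen. The study used littermate controls for this line in other assays, but the sources used here do not say which of these 4 mice were littermates, and name no batches. On counts simulated after the comparison of all plasma cells (1692 genes), edgeR recovered 1.49%, 46.3% and 78.8% of genes changed by 1, 2 and 3 on the log2 scale. Coordinates are GENCODE vM21 (GRCm38, the assembly mm10 names).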

Additional observations from a re-analysis of the deposited data

How the results depend on the processing

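Counts of genes past the threshold moved with most settings, and the cause was not tested. Over all plasma cells the count of 1 became 6 with DESeq2, 0 without TMM and 0 with a Jchain limit of 0.5% or 2%, and 5 to 53 when a mouse was left out. Over non-dividing cells the count of 0 became 2 with DESeq2, 1 when scaled without immunoglobulin genes, 48 with no filter on low genes, 3 at a mitochondrial limit of 10%, 1 without high doublet scores, 1 when 2 cell cycle genes sufficed to call division, and 26 to 70 when a mouse was left out. There the spread of the lone mouse was taken to equal that of the other genotype. Mice of the same replicate number share only the number (correlation of their deviations across 1692 genes -0.191). With the replicate block, 3 genes were called over all and 0 over non-dividing plasma cells, and with the numbers crossed, added after seeing the data, 54 and 1. Ighm passed over all plasma cells with the block (adjusted p = 0.00203). Ighg2b kept its direction in every setting run.

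The immunoglobulin difference stayed negative in every setting run, at -18.7 to -9.85 percentage points over all and -15.8 to -6.14 over non-dividing cells when a mouse was left out. The highest values were those without EC-Foxc-DKO replicate 2. The difference in the share of dividing cells (11.7 points) became 6.61 after thinning and 9.09 to 14.3 when a mouse was left out, that of IgA cells (-22.7) -33.3 to -12.1, and that of plasma cells among all cells (0.401) -0.121 to 0.923.

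Single genes turned sign only near 0 or where 1 mouse carried the value. Without TMM, Derl3 was 0.12 over all and 0.17 over non-dividing cells and Iglc3 0.44 over non-dividing cells. With a mouse left out, Derl3 ranged from -0.75 to -0.02 over all and from -0.58 to 0.15 over non-dividing cells, Iglc1 from -0.47 to 1.61 and from -0.26 to 1.80, and Iglc3 from -0.74 to 3.68 and from -0.48 to 0.32, with the lowest Iglc1 and Iglc3 values without EC-Foxc-DKO replicate 1. In non-dividing cells Iglc3 was also 0.26 with no filter, 0.11 with a Jchain limit of 2%, 0.043 without high doublet scores, 0.10 without Control replicate 1, 0.054 with 2 cell cycle genes and 0.13 in Igha cells. The interaction of genotype and division was not run, with or without TMM, because the Control mice had no dividing plasma cell.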

Other observations

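Beyond the rule for plasma cells, some cells rich in immunoglobulin RNA were read as values. Among the 9 such cells of EC-Foxc-DKO replicate 1, 1 had 26.3% of its 2609 UMIs on Ighg2b with 2.11% on Jchain and 0 UMIs of Mzb1, and 1 with 12896 UMIs had 4.59% on Ighg2b and 0.132% on Jchain. Another, with 48988 UMIs, held 43 UMIs of Ms4a1 beside 12.4% immunoglobulin. The 1 such cell of Control replicate 2 was led by Igha, with 54.7% immunoglobulin and 3 UMIs of Cd3e. In EC-Foxc-DKO replicate 2 all 5 were led by Igha, and 4 of them held a UMI of Cd3e.

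When the cells with a Cd3e UMI were kept, a choice made after seeing the data, the immunoglobulin difference was -14.3 percentage points over all and -10.9 over non-dividing plasma cells, and edgeR called 1 and 0 genes.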
